A study of Mus musculus with 6 samples.

Results

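Smooth muscle contractile genes encode the actin, myosin and regulatory proteins with which smooth muscle cells shorten, and the switch that turns them on. The 10 genes described here, of 24015 with a gene symbol, were chosen by name from that known set: Acta2, Tagln, Cnn1, Myh11, Myl9, Smtn, Mylk, Myocd, Lmod1 and Tpm2. Each was found as 1 row of the expression table. They were compared between ventral tissue, which lay under the dorsal aorta, and dorsal tissue, which lay above the aortic roof and below the notochord. Both were cut by laser microdissection from cryosections of unfixed C57Bl/6 mouse embryos at embryonic day 11.5, on 3 ventral and 3 dorsal arrays, and no mutation or drug is given for either tissue. The labels say that both tissues were taken from the same embryos and number the biological replicates 1 to 3, but do not say how many embryos or sections went into an array. That a number marks one embryo in both tissues is an assumption, on which the standard errors and the counts of pairs given here rest. By its title, the study is about the subaortic niche in which hematopoietic stem cells arise.

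Force in smooth muscle comes from myosin filaments pulling on actin filaments once calcium and calmodulin have activated the light chain kinase, which phosphorylates the regulatory light chain. The genes of this apparatus share a switch: the coactivator myocardin binds serum response factor (SRF), which sits on DNA elements called CArG boxes. In the mid-gestation embryo the wall of the dorsal aorta is recruiting its first smooth muscle cells from surrounding mesenchyme, and the gut and urogenital tissues nearby form smooth muscle of their own.

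The promoters of 3 of these genes are shown because their sequences carry the DNA element of the shared switch (Myl9) or near-matches to it (Myl9, Acta2), or because the gene had the greatest difference between the tissues (Cnn1). The RefSeq promoter table of GRCm38.p6 held windows for 7 of the 10 genes, and Tagln, Myh11 and Myocd were not matched. Each line gives the 180 bases before the annotated start, on the strand of the gene. They are chr19:34255374-34255553 on the minus strand for Acta2, chr2:156775284-156775463 on the plus strand for Myl9 and chr9:22099073-22099252 on the plus strand for Cnn1. Capitals mark CArG boxes (CC, then 6 bases of A or T, then GG) and near-matches with at most 1 G or C among those 6.
Acta2: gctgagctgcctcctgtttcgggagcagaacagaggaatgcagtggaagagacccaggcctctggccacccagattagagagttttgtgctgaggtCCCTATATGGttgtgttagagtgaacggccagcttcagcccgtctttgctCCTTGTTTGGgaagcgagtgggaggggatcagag
Myl9: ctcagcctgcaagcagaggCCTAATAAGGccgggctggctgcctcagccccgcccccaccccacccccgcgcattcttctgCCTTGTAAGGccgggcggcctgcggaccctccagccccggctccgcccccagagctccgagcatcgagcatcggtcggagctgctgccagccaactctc
Cnn1: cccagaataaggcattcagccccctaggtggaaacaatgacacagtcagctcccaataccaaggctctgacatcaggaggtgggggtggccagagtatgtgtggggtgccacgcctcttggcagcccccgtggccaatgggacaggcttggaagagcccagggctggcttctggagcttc

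The Myl9 promoter held a full CArG box 161 bases before the start (CCTAATAAGG) and a near-match 99 bases before it (CCTTGTAAGG). The Acta2 promoter held 2 near-matches, 84 bases (CCCTATATGG) and 34 bases (CCTTGTTTGG) before the start. The element reads the same pattern on both strands, so both were covered, and full boxes count among the near-matches. Over windows of 300 bases (250 before and 50 after the start), 1 of the 7 genes held a full box, against 1.63% of all 32851 windows, and 2 held a box or near-match, against 9.98%. The letters CATTCC, read by TEAD factors, were found on either strand in 4 of the 7 windows (Acta2, Lmod1, Mylk and Smtn), against 14.7% of all windows. These are letter matches only, and the Cnn1, Smtn, Mylk, Lmod1 and Tpm2 windows had no box or near-match within these bounds.

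The ventral average was above the dorsal average for every one of the 10 contractile genes, but no gene passed the test, and 1 ventral array carried much of the difference. Cnn1 differed most, 6.93-fold, followed by Acta2 (2.77-fold). Myh11, Myl9, Tagln and Tpm2 differed by 1.45-fold to 1.69-fold, and Smtn, Mylk, Lmod1 and Myocd by 1.13-fold to 1.22-fold. Values are log2 expression levels, so that a step of 1 is a doubling, and comparisons were fitted in limma with the replicate number as a block. Genes with a mean below 4.52, the median of all rows, were not tested. Lmod1 fell just short with a mean of 4.48, while Myocd lay just above with 4.69. The 9 tested genes were above that level in the dorsal mean too, from 4.60 for Myocd to 7.92 for Tpm2. In bulk tissue, fewer cells of a type and less RNA per cell cannot be told apart.

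**Figure D1:**
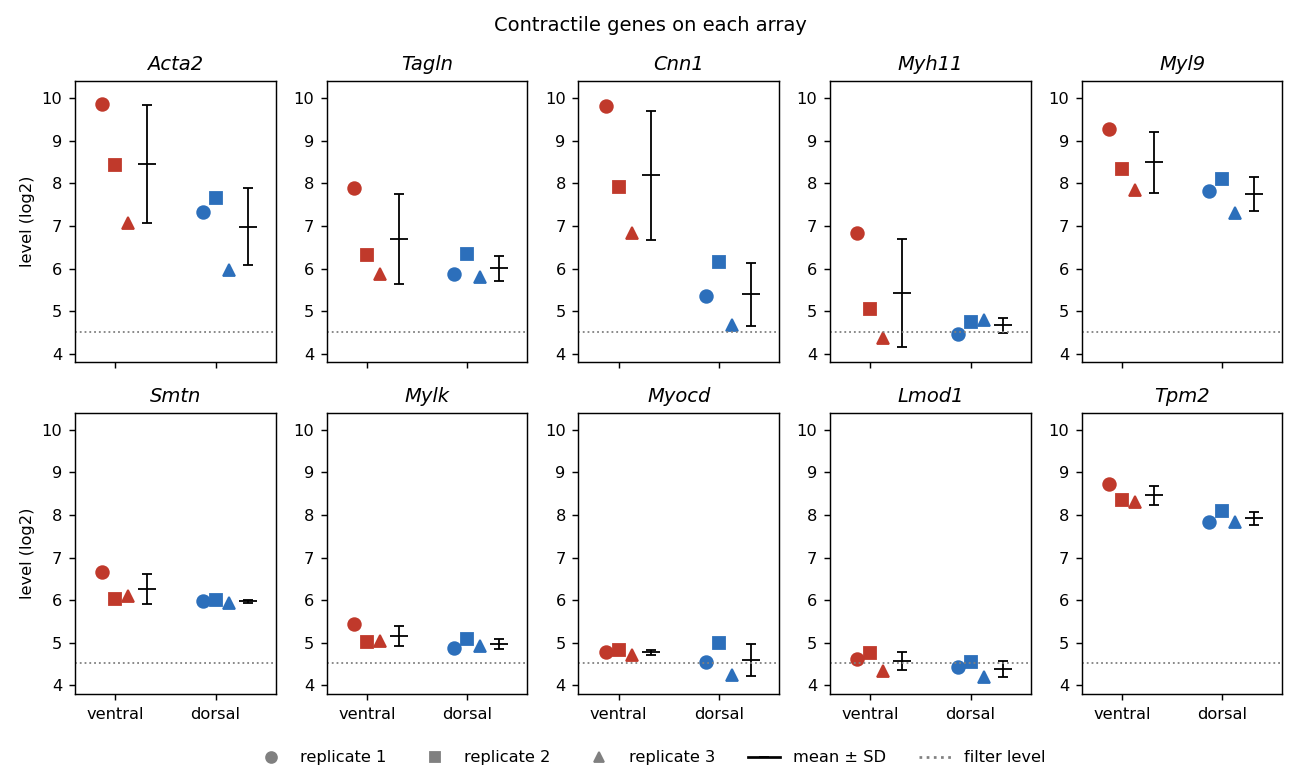
Level (log2) of each of the 10 contractile genes on the 3 ventral (red, left) and 3 dorsal (blue, right) arrays, with marker shape for the replicate number, a bar for the mean ± SD, and a dotted line at the filter level of 4.52. Ventral replicate 1 is the highest array for Acta2, Tagln, Cnn1, Myh11, Myl9, Smtn, Mylk and Tpm2.

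Of the thin filament proteins, smooth muscle actin and calponin set the pattern. Cnn1 encodes calponin 1, which binds actin and restrains the myosin motor. Its level was 9.82, 7.91 and 6.83 in ventral replicates 1, 2 and 3, against 5.36, 6.15 and 4.68 in dorsal replicates 1, 2 and 3. Every ventral array was above every dorsal array, with a gap of 0.69 between the nearest arrays. The means were 8.19 ± 1.51 in ventral and 5.39 ± 0.74 in dorsal tissue (SD, n = 3 each), a log2 fold change of 2.79 ± 0.50 (SE; limma, adjusted p = 0.100). Only 8 of the 12028 genes tested had a higher log2 fold change. Without the replicate block the adjusted p was 0.199.

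Acta2 encodes smooth muscle alpha-actin, an early marker that some fibroblasts and pericytes also make. Its level was 9.85, 8.44 and 7.07 in ventral replicates 1 to 3, against 7.33, 7.66 and 5.96 in dorsal replicates 1 to 3. The groups overlapped, since ventral replicate 3 was below dorsal replicates 1 and 2, yet the ventral array was the higher in each same-numbered pair. The log2 fold change was 1.47 ± 0.34 (SE; limma, adjusted p = 0.185), and without the block the SE was 0.69 and the adjusted p 0.535. Tpm2 encodes beta-tropomyosin, which lies along the actin filament. Its level was 8.72, 8.36 and 8.30 in ventral replicates 1 to 3, against 7.82, 8.09 and 7.84 in dorsal replicates 1 to 3. The Tpm2 groups did not overlap, and the difference of 0.54 ± 0.20 did not pass either (limma, adjusted p = 0.400).

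Tagln encodes transgelin, an actin-bundling protein that is among the most abundant of smooth muscle. It stood at 7.89, 6.31 and 5.87 in ventral replicates 1 to 3, against 5.88, 6.34 and 5.79 in dorsal replicates 1 to 3. Ventral replicate 1 was high and the other 5 arrays lay within the range of 5.79 to 6.34, so that the log2 fold change of 0.69 ± 0.41 (limma, adjusted p = 0.632) was 0.03 without replicate 1. Lmod1 encodes leiomodin 1, which starts new actin filaments, and its levels were 4.61, 4.75 and 4.35 in ventral replicates 1 to 3, against 4.43, 4.56 and 4.19 in dorsal replicates 1 to 3. The ventral array was higher by 0.16 to 0.19 in each Lmod1 pair, at levels near the filter, and the difference was not tested over the filtered genes. Tested with no filter, it was 0.18 ± 0.13 (limma, adjusted p = 0.812). Smtn encodes smoothelin, a cytoskeletal protein of contractile smooth muscle, and had 6.66, 6.03 and 6.09 in ventral replicates 1 to 3, against 5.97, 6.01 and 5.93 in dorsal replicates 1 to 3. Its groups were separated by a gap of only 0.02, and the log2 fold change was 0.29 ± 0.20 (limma, adjusted p = 0.702).

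The motor and its activators follow. Myh11 encodes the smooth muscle myosin heavy chain, the most specific marker of the lineage among these genes. Its level was 6.84, 5.06 and 4.38 in ventral replicates 1 to 3, against 4.46, 4.76 and 4.79 in dorsal replicates 1 to 3. Ventral replicate 1 stood well above the other 5 arrays, ventral replicate 3 was the lowest array of all, and the log2 fold change of 0.76 ± 0.50 (limma, adjusted p = 0.675) was −0.05 without replicate 1. Myl9, the regulatory light chain that the kinase phosphorylates, had levels of 9.27, 8.35 and 7.85 in ventral replicates 1 to 3, against 7.83, 8.09 and 7.30 in dorsal replicates 1 to 3. The Myl9 groups overlapped through ventral replicate 3 and dorsal replicate 2, each pair was higher on the ventral side, and the log2 fold change was 0.75 ± 0.26 (limma, adjusted p = 0.367).

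Mylk encodes the light chain kinase, and its levels were 5.43, 5.03 and 5.04 in ventral replicates 1 to 3, against 4.87, 5.10 and 4.93 in dorsal replicates 1 to 3. The Mylk groups overlapped, with a log2 fold change of 0.20 ± 0.20 (limma, adjusted p = 0.806). The switch itself, Myocd, which encodes myocardin, stood at 4.78, 4.82 and 4.72 in ventral replicates 1 to 3, against 4.56, 4.995 and 4.24 in dorsal replicates 1 to 3. Dorsal replicate 2 was the highest array for Myocd and dorsal replicate 3 the lowest, and the log2 fold change was 0.17 ± 0.20 (limma, adjusted p = 0.842). Its 95% confidence interval was −0.30 to 0.65, at levels close to the filter.

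**Figure D2:**
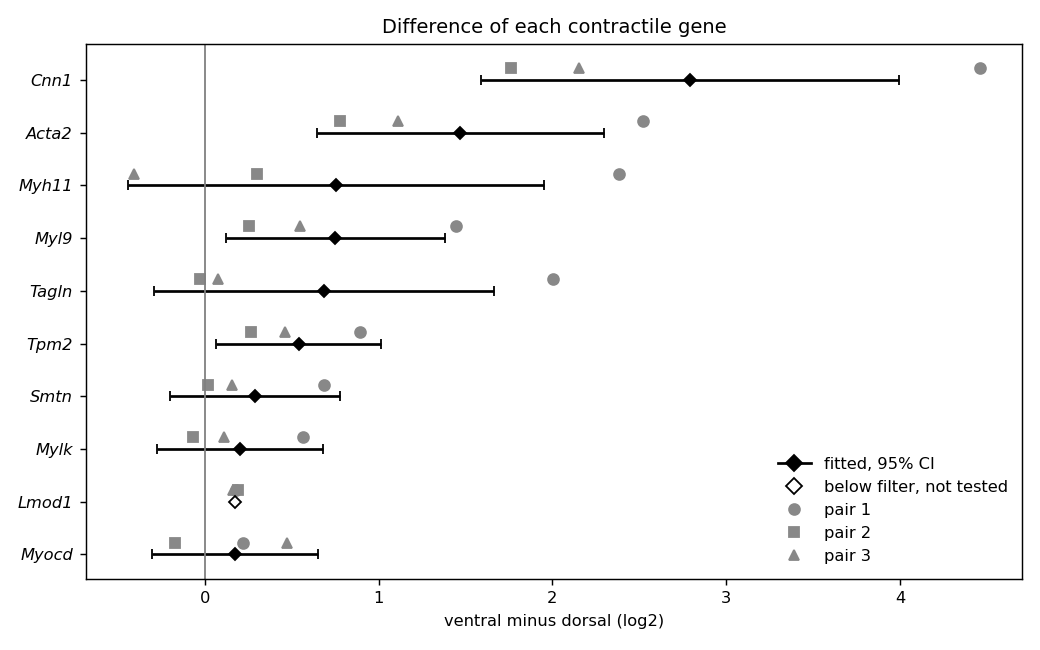
Ventral minus dorsal difference (log2) of each contractile gene, with black diamonds for the fitted value and its 95% confidence interval, an open diamond for Lmod1, which was not tested, and grey markers for the 3 same-numbered pairs. The circle of pair 1 lies farthest to the right for Cnn1, Acta2, Myh11, Myl9, Tagln, Tpm2, Smtn and Mylk, and the intervals of Cnn1, Acta2, Myl9 and Tpm2 lie above 0 before adjustment over all genes.

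As a group, 9 of the 9 tested contractile genes had positive log2 fold changes, as had 47.7% of all 12028 genes tested, and their median was 0.69, against −0.01 over all genes. In limma 0 passed an adjusted p of 0.05, against 0.308% of all genes called higher in ventral tissue. At an unadjusted p under 0.05, 4 were higher (Cnn1, Acta2, Myl9 and Tpm2), where the share over all genes was 5.6%, and without the block 2 were (Cnn1 and Tpm2), against 5.27%. The ventral arrays were all above the dorsal arrays for 3 of the 9 (Cnn1, Smtn and Tpm2), against 7.5% of all genes. The ventral array was the higher one in all 3 pairs for 5 of the 9 (Cnn1, Acta2, Myl9, Tpm2 and Smtn), against 15.3% of all genes. The genes were chosen with earlier results of these arrays known, so these counts describe the list and do not test it.

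Ventral replicate 1 decided much of that difference. It was the highest of the 6 arrays for 8 of the 9 tested genes, all but Myocd, where this held for 17.8% of all genes tested. The mean of the 9 genes, each taken relative to its own mean over the 6 arrays, was 1.24, 0.25 and −0.21 in ventral replicates 1 to 3, against −0.44, −0.10 and −0.73 in dorsal replicates 1 to 3. Ventral replicate 3 was thus below dorsal replicate 2. Without replicate 1 the median log2 fold change was 0.15, and 8 of the 9 were positive. Cnn1 kept a log2 fold change of 1.96 ± 0.24 and was among the 83 of 12022 genes that passed there (limma, adjusted p = 0.0263). That fit rests on replicates 2 and 3 only, which leaves little to estimate the spread of a gene. Over its alternatives the adjusted p of Cnn1 in limma ran from 0.0263 to 0.435. Without replicate 1 Acta2 had 0.94, and Smtn, Mylk and Tagln had 0.02 to 0.09. The array medians were alike (4.53 on ventral replicate 1, 4.49 to 4.55 over all arrays). RMA processing brings arrays to a common distribution, so the medians cannot show whether this array stands apart.

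The spread between arrays of one tissue was wide for some of these genes and ordinary for others. The SD over the ventral arrays was 1.51 for Cnn1, 1.39 for Acta2, 1.27 for Myh11 and 1.06 for Tagln, where the median of all genes tested was 0.23. Each of these 4 was above 98.6% of all genes tested in its ventral SD, and Myl9 (0.72) was above 96.2%. Smtn (0.34), Mylk (0.23) and Tpm2 (0.23) were above 72.2%, 49.8% and 48.5% of genes. Over the dorsal arrays the SD of Acta2 (0.90) and Cnn1 (0.74) exceeded that of 98.2% and 96.6% of genes, while Myh11 (0.18) and Tagln (0.29) were ordinary, with a dorsal median of 0.22. Smtn was nearly constant on the dorsal side, at 0.04. Myocd was the reverse of most others, with an SD of 0.05 over ventral and 0.38 over dorsal arrays.

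The arrays were ordered alike by most of the genes. In dorsal tissue replicate 2 was above the dorsal mean for 9 of the 9 tested genes, which held for 49.1% of all genes tested, and replicate 3 was below it for 8 of the 9, against 51%. In ventral tissue replicate 1 was above the ventral mean for 9 of the 9, against 48.1%, though for Myocd by only 0.008. Replicate 3 was above it for 0. That count is not a separate sign, since an array far above a mean tends to leave the others below it. After the tissue means were removed, Pearson's r between the contractile genes over the 6 arrays had a median of 0.87 over 36 pairs. For the 28 pairs without Myocd it ran from 0.75 to 0.99, and for the 8 pairs with Myocd from 0.05 to 0.56. These values describe genes measured on the same 6 arrays. Over the 5 arrays without ventral replicate 1 the median was 0.68. It was 0.59 for the pairs without Myocd (−0.53 to 0.99) and 0.82 for those with it (0.12 to 0.89). The lower values of the Myocd pairs were thus not seen without that array.

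**Figure D3:**
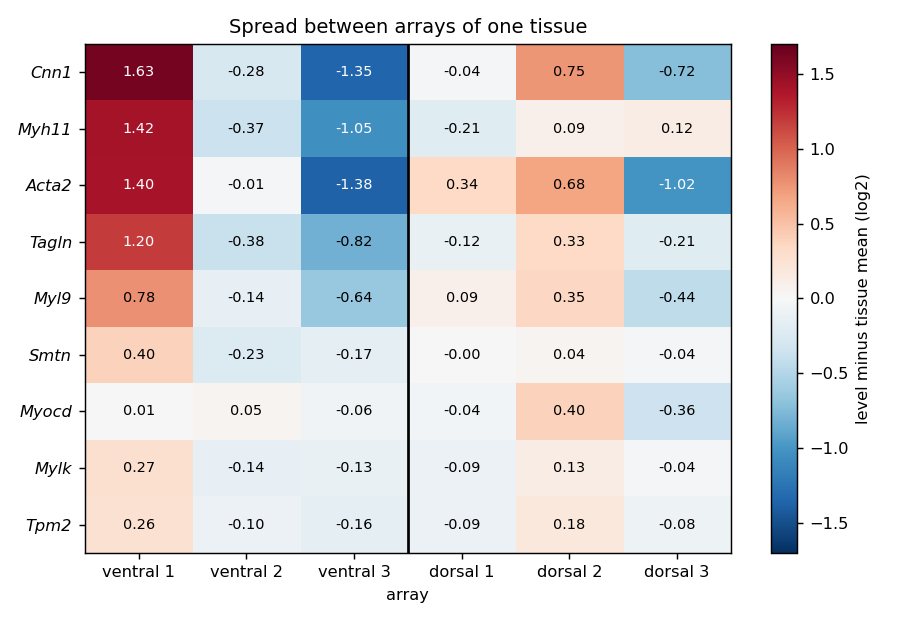
Level minus the mean of its tissue (log2) for the 9 tested contractile genes on each array, red above and blue below that mean, with the value in each cell. The ventral replicate 1 column is red for Cnn1 (1.63), Myh11 (1.42), Acta2 (1.40) and Tagln (1.20), and the dorsal replicate 2 column is above 0 for every gene.

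The closest relatives of the contractile genes, most of which serve other muscles or all cells, were set beside them. Of 26 such genes 25 were named in the platform table and 19 tested. None passed in limma, where 62 of all 12028 genes tested did. Of the 19, 14 had positive and 5 negative log2 fold changes, and the median was 0.19. Over all genes tested 47.7% were positive. Actg2, the smooth muscle gamma-actin of gut and bladder, was 4.91-fold higher in ventral tissue, with levels of 9.92, 7.93 and 7.87 in ventral replicates 1 to 3, against 6.48, 7.44 and 4.91 in dorsal replicates 1 to 3. Its groups did not overlap, and the log2 fold change was 2.30 ± 0.54 (limma, adjusted p = 0.185; 0.320 without the block). Actg2 is counted again among the other smooth muscle markers below, and Actc1 and Acta1 among the striated muscle genes. The actins are nearly identical as proteins and similar in coding sequence. Probes of Acta2, Actg2, Actc1 and Acta1 may share signal, which was not tested. Actc1 and Acta1 had log2 fold changes of 0.80 ± 0.41 and 0.26 ± 0.29 and did not pass. Actb, the cytoplasmic beta-actin, differed by −0.00 ± 0.18.

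The other calponins, Cnn2 and Cnn3, which are made in many non-muscle cells, had log2 fold changes of 0.10 ± 0.21 and 0.12 ± 0.17, and the non-muscle myosins Myh9 and Myh10 had 0.26 ± 0.23 and −0.28 ± 0.18. Tagln2 (0.20 ± 0.23) and Tagln3 (−0.42 ± 0.23), the transgelin of neurons, and the light chains Myl12a (0.48 ± 0.45) and Myl12b (0.03 ± 0.18) likewise did not pass. Tpm1, the tropomyosin shared with heart and skeletal muscle, had the lowest value of the relatives (−0.59 ± 0.20; limma, adjusted p = 0.354). Tpm3 and Tpm4 had 0.25 ± 0.28 and 0.36 ± 0.20. The ventral arrays were all above the dorsal arrays for 3 of the 19 tested relatives (Actg2, Cnn3 and Tpm4), against 7.5% of all genes. Tagln3 went the other way, with ventral arrays at 5.62 to 5.77 and dorsal arrays at 5.86 to 6.58. The share of all genes separated in that direction was not counted. Whether a contractile gene and its relative differed from each other in their tissue difference was not tested.

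**Figure D4:**
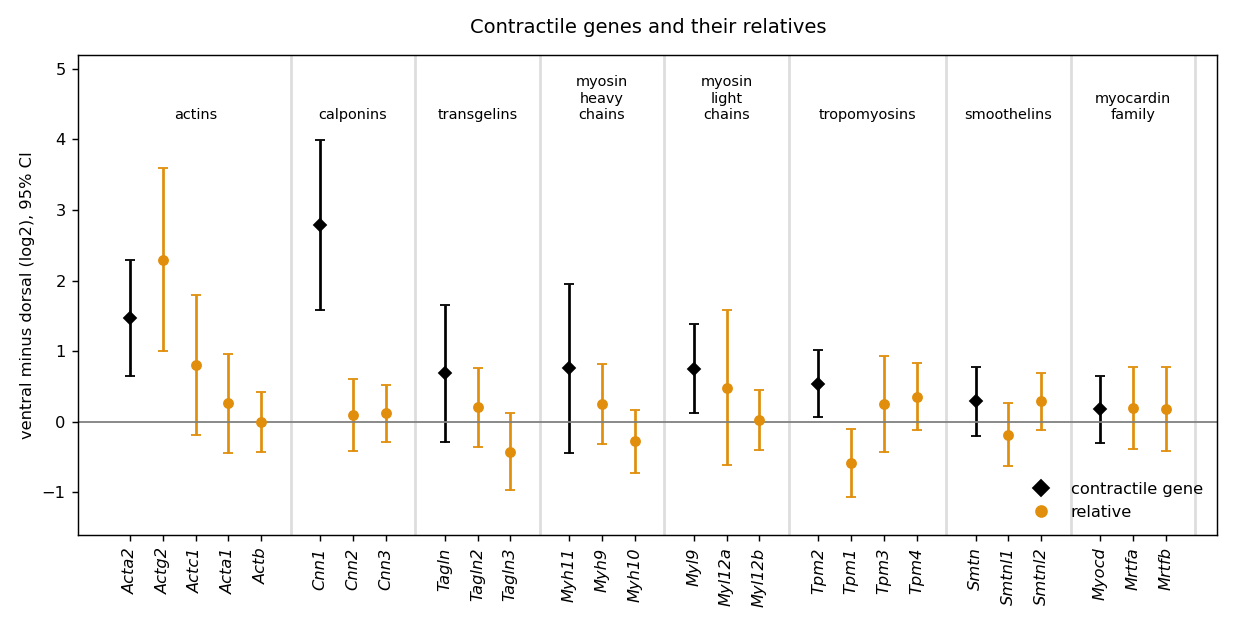
Fitted ventral minus dorsal difference (log2) with its 95% confidence interval for contractile genes (black diamonds) and their tested relatives (orange circles), grouped by protein family. Cnn1 (2.79) lies apart from Cnn2 (0.10) and Cnn3 (0.12), while Acta2 (1.47) is accompanied by Actg2 (2.30).

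Among 14 regulators of the smooth muscle programme, all tested, Gata6 and Tcf21 passed in limma and both were higher in ventral tissue. Their log2 fold changes were 3.19 ± 0.19 and 4.70 ± 0.29 (limma, adjusted p = 0.00336 and 0.00347). Of all genes tested, 0.308% were called higher in ventral tissue. Gata6 is a zinc-finger factor of visceral mesoderm and vascular smooth muscle, and Tcf21 a factor of visceral mesenchyme that restrains smooth muscle differentiation in the epicardium. Gata6 stood at 7.47, 8.27 and 8.58 in ventral replicates 1 to 3, against 4.48, 4.79 and 5.48 in dorsal replicates 1 to 3. Tcf21 stood at 7.55, 9.44 and 8.97 in ventral replicates 1 to 3, against 3.25, 5.16 and 3.45 in dorsal replicates 1 to 3. The dorsal mean of Tcf21, 3.95, was below the filter level of 4.52, so it was tested only through its ventral values. Ventral replicate 1, the highest array for Cnn1 and Acta2, was the lowest ventral array for both, while dorsal replicate 2 was the highest dorsal array for Tcf21 as for Cnn1 and Acta2. Srf itself had a log2 fold change of 0.54 ± 0.20 with no overlap between the groups (limma, adjusted p = 0.392). Its partners of the myocardin family, Mrtfa (0.19 ± 0.24) and Mrtfb (0.18 ± 0.25), Klf4, which represses contractile genes (0.06 ± 0.18), and the ETS factor Elk1, which competes with myocardin for SRF (0.22 ± 0.20), did not pass. Over the 14 genes, 12 had positive and 2 negative values, with a median of 0.21, where 47.7% of all genes tested were positive. The negative ones were Prrx1 (−0.48 ± 0.24) and Foxf1 (−1.71 ± 0.72), a forkhead factor of visceral mesenchyme. Mrtfa and Mrtfb were also counted among the relatives, and Csrp1 is counted again among the other smooth muscle markers.

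Of 22 genes that control contraction, 18 were tested and 0 passed in limma, against 62 of all 12028 genes tested. Positive values numbered 14 and negative ones 4, with a median of 0.14, where 47.7% of all genes tested were positive. The highest was Cald1, which encodes caldesmon, an actin-binding brake on the motor (0.67 ± 0.17, adjusted p = 0.220), with ventral arrays at 7.75 to 8.17 and dorsal arrays at 7.22 to 7.48. The lowest was Cacna1c, the L-type calcium channel (−0.38 ± 0.20). Next to Cald1 came Myl6, the essential light chain of the motor (0.63 ± 0.34), and Dstn, an actin-severing protein (0.41 ± 0.19).

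Of 20 other smooth muscle markers, 13 were tested and 0 passed in limma, against 62 of all 12028 genes tested. For 12 the log2 fold change was positive, against 47.7% of all genes tested, with a median of 0.45. For 6 the ventral arrays were all above the dorsal arrays, against 7.5% of all genes. Those with the highest values, after Actg2, were Csrp1, a LIM protein of smooth muscle (1.14 ± 0.31, adjusted p = 0.254), Des, the muscle intermediate filament desmin (1.12 ± 0.18, adjusted p = 0.0721; 0.335 without the block), and Pdlim7 (0.90 ± 0.23, adjusted p = 0.216). Des had a dorsal mean of 4.06, below the filter level of 4.52, and was tested only because its ventral values raised its overall mean to 4.62. The mean of these 13 genes relative to their own means was 0.43, 0.34 and 0.14 in ventral replicates 1 to 3, against −0.32, −0.02 and −0.58 in dorsal replicates 1 to 3, so that the groups did not overlap. The lowest value was that of Synpo2 (−0.02 ± 0.20).

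Markers of other cells that make some of the same proteins were set beside the contractile genes, and their part in the differences was not tested. Of 14 pericyte genes 12 were tested, with 7 positive and 5 negative values and a median of 0.06, where 47.7% of all genes tested were positive. Rgs5, a pericyte gene, passed with the block (2.18 ± 0.24; limma, adjusted p = 0.0258) and not without it (0.0732). With the block 0.308% of all genes tested were called higher in ventral tissue. The mean level of the 14 pericyte genes was 5.65 to 5.97 in ventral and 5.23 to 5.71 in dorsal tissue. Relative to their own means the 12 tested ones averaged 0.33, 0.05 and 0.09 in ventral replicates 1 to 3, against −0.15, 0.07 and −0.40 in dorsal replicates 1 to 3. As for the contractile genes, ventral replicate 1 was the highest and dorsal replicate 3 the lowest array. Striated muscle also makes actin and tropomyosin. Of 21 striated muscle genes only 10 were bright enough to be tested, 6 with positive and 4 with negative values, and 0 passed in limma. Those below the filter included Myod1, Ttn, Myh3, Myh8, Ckm and Neb, and the mean level of the 21 genes was 4.21 to 4.61 in ventral and 4.24 to 4.60 in dorsal tissue. The 10 tested striated genes averaged 0.43, 0.02 and −0.28 in ventral replicates 1 to 3, relative to their own means. In dorsal replicates 1 to 3 they averaged −0.27, −0.16 and 0.26. Ventral replicate 1 was thus their highest array too, where the contractile genes were at 1.24. Dorsal replicate 3, the lowest array of the contractile genes, was their highest dorsal array.

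The endothelium lines the vessel that smooth muscle surrounds, and its genes followed another order of arrays. Of 14 endothelial genes 13 were tested, 11 with positive values, a median of 0.46 and 0 passing in limma. Their relative mean was −0.06, 0.31 and 0.37 in ventral replicates 1 to 3, with the lowest ventral value on the array where the contractile genes were highest, against −0.49, 0.19 and −0.33 in dorsal replicates 1 to 3. The mean level of the 14 genes was 5.75 to 6.18 in ventral and 5.33 to 5.99 in dorsal tissue. Genes of mesothelium and coelomic epithelium had 5 positive values among 5 tested, with a median of 1.01. Sclerotome and cartilage genes had 6 negative values among 8 tested, with a median of −1.39, and Pax1 and Col2a1 passed as higher in dorsal tissue, where the labels place the cut next to the notochord. All 7 tested erythroid genes were negative, with a median of −0.61. Of 7 tested immediate early and SRF response genes 4 were positive, with a median of 0.31. In the mesothelial, erythroid and immediate early lists 0 genes passed in limma. Of all 12028 genes tested, 47.7% were positive, and 62 passed, 37 as higher in ventral and 25 as higher in dorsal tissue.

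**Figure D5:**
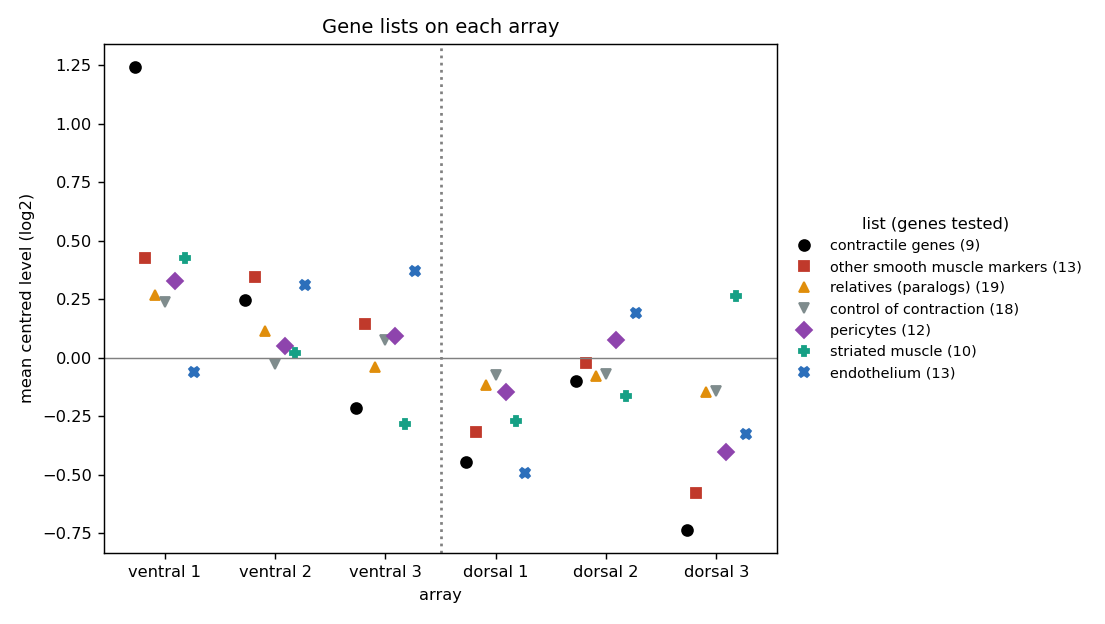
Mean level of each gene list on each array (log2), every gene taken relative to its own mean over the 6 arrays, with ventral arrays left of the dotted line, dorsal arrays right of it, and the number of genes tested in the legend. The contractile genes (black) reach 1.24 on ventral replicate 1, where the endothelial genes are at −0.06, and are at −0.73 on dorsal replicate 3.

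The genes most like the contractile group over the 6 arrays were sought among 1353 tested genes with an SD of at least 0.5, by Pearson's r with the mean of the 9. Highest were Tgfb1i1 (0.984), which encodes Hic-5, a focal adhesion protein, then Ly86 (0.984), Errfi1 (0.982), Mir1b (0.979), Cryab (0.977), a small heat shock protein, Rarb (0.973), a retinoic acid receptor, Angpt2 (0.972) and Adarb1 (0.970). None of these 8 passed the comparison of the tissues in limma (adjusted p = 0.311 to 0.541), and their log2 fold changes were 0.58 to 2.07. After the tissue means were removed the 8 highest were Septin5 (0.993), Ecm1 (0.992), Polh (0.989), Myc (0.989), Adamts18 (0.985), Kcnd2 (0.983), Tomm5 (0.982) and Ly86 (0.979). Of these, Ecm1 passed the comparison of the tissues (2.47; limma, adjusted p = 0.0358), and Septin5 had a log2 fold change of −0.75 and an r of 0.106 before the tissue means were removed. Only Ly86 was in both sets. With 6 arrays sharing 1 high array, values this near 1 describe the arrays and are not evidence of a link.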

How the data were processed

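Total RNA from laser-microdissected tissue was amplified and biotin labelled with NuGEN kits per the labels' protocols, from picogram amounts, which can distort ratios of weak transcripts. The deposited table holds 1 log2 level per gene row and array, made with Affymetrix Expression Console and RMA per the submitters' processing notes. Versions, the grouping of probes and the build were not stated there. Of 24973 rows 24015 had 1 gene symbol in the platform table. Ventral minus dorsal differences were fitted in R 4.3.3 with limma 3.58.1 (two-sided, Benjamini-Hochberg over 12028 genes at or above the median level of 4.52, threshold 0.05), blocked on the replicate number because the labels say that both tissues came from the same embryos, on the assumption that a number marks one embryo. Once tissue means were removed, arrays of the same number correlated by 0.0992, 0.0763 and 0.226, so the values pair the arrays only weakly. The median SE of a log2 fold change was 0.20, and having only 6 arrays limits the precision. The fit was also run on simulated data, which does not measure its power for differences as small as most of those seen here. Named genes were the 10 contractile genes, in each list those past the threshold or else highest and lowest, the closest relatives, and the 8 genes most like the group by each measure. Some list genes outside that rule are given as examples chosen after their values were seen. Members, lists and rules were chosen with earlier results of these data known. Motifs were counted in RefSeq promoter windows of GRCm38.p6. Alternatives were the block, the filter, the normalization, the variance model and leaving out replicates or single arrays.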

Additional observations from a re-analysis of the deposited data

How the results depend on the processing

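The count of contractile genes past the threshold was 0 with no replicate block, with the block as a random term, without the filter, with a stricter filter, after shifting the arrays to one median, after cyclic loess and with a robust trend. It was 0 to 1 when a replicate was left out, the 1 being Cnn1 without replicate 1, where 83 of 12022 genes passed. No paired call was lost or gained without the replicate block, where the count was also 0. Positive log2 fold changes numbered 8 to 10 when a replicate was left out, of 9 or 10 tested. The count of genes with all ventral above all dorsal arrays was 3 to 7 when a replicate was left out, reaching 6 without replicate 2 and 7 without replicate 3. After shifting the arrays to one median it was 2, against 6.78% of all genes. Fewer arrays separate more easily by construction: without replicates 1, 2 and 3 the share over all genes was 18.6%, 17.1% and 18.7%. Leaving out single arrays without the replicate block was added after seeing the data, and gave 6 without ventral replicate 3 and 6 without dorsal replicate 2, against 12.9% and 12.3% of all genes. Only 2 directions turned, Myh11 (−0.0546 without replicate 1, and at most 1.34 without replicate 3) and, with single arrays left out, Myocd without dorsal replicate 3 (−0.0032), and the cause was not tested. The median log2 fold change of the contractile genes was 0.15 without replicate 1, 0.17 without ventral replicate 1 alone, and 0.52 to 1.07 without any other replicate or array. Signal near the filter level limits Myocd, Lmod1, Mylk and Myh11.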

Other observations

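Other list genes whose values set ventral replicate 1 apart were looked up after their values were seen. Heyl, a Notch target of mural cells, stood at 7.29 on that array, against 5.57 and 5.84 on ventral replicates 2 and 3, and at 6.12 to 6.27 on the dorsal arrays. Meox2, a homeobox gene of somitic mesenchyme, stood at 8.07, against 4.96 and 4.50 on ventral replicates 2 and 3, and at 4.08 to 5.94 on the dorsal arrays. Itga8, an integrin subunit of mesenchyme and smooth muscle, differed the other way, with 3.77 on ventral replicate 1, 6.68 and 6.92 on ventral replicates 2 and 3, and 5.25 to 5.42 on the dorsal arrays. These genes were picked for such values and do not stand for their lists. Among the ventral arrays, the pericyte genes Pdgfrb and Mcam were highest on replicate 1, but Notch3 and Rgs5 on replicate 2. Of the sclerotome genes, Pax1 was highest there on replicate 2 and Meox1 on replicate 3. Ventral replicate 1 was the highest of the 6 arrays for 17.8% of all genes tested.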
